A study of Mus musculus with 36 samples.

Results

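The 4 carbonic anhydrase genes Car2, Car4, Car5b and Car13 were chosen by symbol from the 19938 genes that had a probe set with a single symbol, and each had 1 probe set. The probe sets were 10490923 for Car2, 10379866 for Car4, 10607738 for Car5b and 10490903 for Car13. A gene was tested where its log2 level exceeded the median of the whole table, 4.62, on at least 4 of the 36 arrays, which left 12244 genes. Car13 exceeded that median on 35 arrays, Car4 on 25, Car5b on 24 and Car2 on 1, so that 3 of the 4 genes were tested and Car2 was not.

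Carbonic anhydrases convert carbon dioxide and water into bicarbonate and a proton, and back. Car4 is anchored in the outer face of the plasma membrane, Car2 and Car13 are cytosolic, and Car5b lies in mitochondria. Car4 is also known as a gene that alveolar macrophages of the mouse express strongly, and Car2 is known from red cells and from the acid-secreting osteoclast.

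Expression was measured on 36 Affymetrix Mouse Gene 1.0 ST arrays, 4 biological replicates in each of 9 groups, and all donor and control cells came from wild-type C57BL/6 mice whose cells carry both CD45.1+ and CD45.2+ alleles. Descendants of transferred cells were alveolar macrophages sorted by these alleles from lavage fluid 6 weeks after intranasal transfer into neonatal Csf2rb-/- recipients, mice that lack a receptor chain for GM-CSF. The 4 descendant groups came from yolk sac macrophages, fetal liver monocytes, bone marrow monocytes and adult alveolar macrophages (called YS-derived, FL-derived, BM-derived and AM-derived below). Native alveolar macrophages came from lavage of mice aged 6 to 12 weeks, the donor population of the AM-derived cells, and from 6-week-old mice. The precursors were yolk sac macrophages of E12.5 embryos, fetal liver monocytes of E15.5 embryos, and bone marrow monocytes of mice aged 6 to 12 weeks. Cell preparation differed between tissues, with collagenase for the yolk sac and fetal liver, crushing for bone and flushing for lung. The labels do not say which further markers were used in the sorts, or whether the cells of several animals were pooled.

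Each array correlated at 0.963 or more, on average, with the other arrays of its group. Of the alveolar macrophage markers other than Car4, 12 of 12 measured were above the table median in all 6 groups of alveolar macrophages. In the precursors 8 of 12 were above it in yolk sac macrophages, 5 in fetal liver monocytes and 7 in bone marrow monocytes. The monocyte list was above it with 8 of 8 in both monocyte groups, against 3 in yolk sac macrophages and 4 in each alveolar macrophage group. The list for yolk sac and fetal macrophages was above it with 10 of 10 in the yolk sac macrophages, against 3 to 5 in the other groups. One feature set the 6-week native arrays apart. Each of these 4 arrays had either the X-linked Xist or the Y-linked Eif2s3y above the table median, with Xist at 4.31, 8.99, 9.24 and 3.73 and Eif2s3y at 7.88, 2.65, 2.85 and 7.87 on arrays 1 to 4. In the 32 arrays of the other groups both genes were above it, with Xist at 6.37 or more and Eif2s3y at 5.56 or more. Comparisons with the 6-week group were therefore also made with either kind of 6-week array alone. In bulk RNA of this kind, fewer cells of a type and less RNA per cell cannot be told apart. All adjusted p-values are from limma, over the 12244 genes. Each tests a difference of group means against the spread of arrays within groups, estimated over all 9 groups unless stated.

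The DNA before the start is shown for Car4 and Car5b, the only members with a promoter sequence in the reference used. They also changed most among the 4 between precursors and descendants. Sequences are the 250 bases before the annotated start in RefSeq GRCm38.p6, 5′ to 3′ on the gene's own strand. Car4 is on the plus strand, at chr11:84957504-84957753. Car5b is on the minus strand of the X chromosome, at chrX:164028011-164028260. Capitals mark the GC box GGGCGG.
Car4: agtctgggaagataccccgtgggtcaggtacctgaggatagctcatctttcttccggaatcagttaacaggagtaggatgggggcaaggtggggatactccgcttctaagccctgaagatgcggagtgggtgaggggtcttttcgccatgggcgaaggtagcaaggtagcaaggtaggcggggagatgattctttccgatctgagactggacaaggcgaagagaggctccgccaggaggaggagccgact
Car5b: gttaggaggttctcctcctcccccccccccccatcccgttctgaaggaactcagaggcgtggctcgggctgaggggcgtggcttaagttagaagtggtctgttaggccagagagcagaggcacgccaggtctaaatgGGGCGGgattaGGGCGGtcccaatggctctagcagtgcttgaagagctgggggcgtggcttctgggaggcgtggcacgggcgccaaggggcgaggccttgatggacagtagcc
The Car4 window was 56.4% G or C and the Car5b window 63.6%, against a median of 52.4% over 32851 promoter windows of the same length. Both strands were searched for 5 short motifs. These were the nuclear receptor half-site AGGTCA, the ETS core with flank GGAAGT, the E-box CACGTG, the TATA box TATAAA and the GC box GGGCGG. The ETS core without this flank was not searched. None of the 5 full runs of letters was present in the Car4 window. Car5b held 2 GC boxes, which began 113 and 102 bases before the start. The share of all windows with a match was 14.0% for AGGTCA, 19.7% for GGAAGT, 6.02% for CACGTG, 12.4% for TATAAA and 32.7% for GGGCGG.

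Car4, the membrane-anchored enzyme, separated all alveolar macrophages from all precursors, and it did so by more than 6 log2 units between the nearest arrays. On the log2 scale it had 11.51, 11.53, 11.46 and 11.69 in YS-derived cells and 11.46, 11.73, 11.45 and 11.59 in FL-derived cells. Levels in BM-derived cells were 11.91, 11.46, 11.97 and 11.58. These 12 arrays lay within a narrow band, and the groups overlapped. AM-derived cells had 11.61, 11.37, 11.25 and 11.15, against 11.47, 11.31, 11.21 and 10.98 in native adult alveolar macrophages, the kind of cell transferred. In 6-week native alveolar macrophages the levels were 11.37, 11.42, 11.34 and 11.40. The native and the AM-derived arrays overlapped, and the 6-week group had the narrowest spread. Car4 was 3.97, 3.63, 3.78 and 3.79 in yolk sac macrophages and 4.11, 4.08, 4.28 and 3.94 in fetal liver monocytes. Bone marrow monocytes had 3.77, 4.05, 4.04 and 4.72. Only this last array was above the table median, so the precursor levels are those of a dim probe set.

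**Figure D1:**
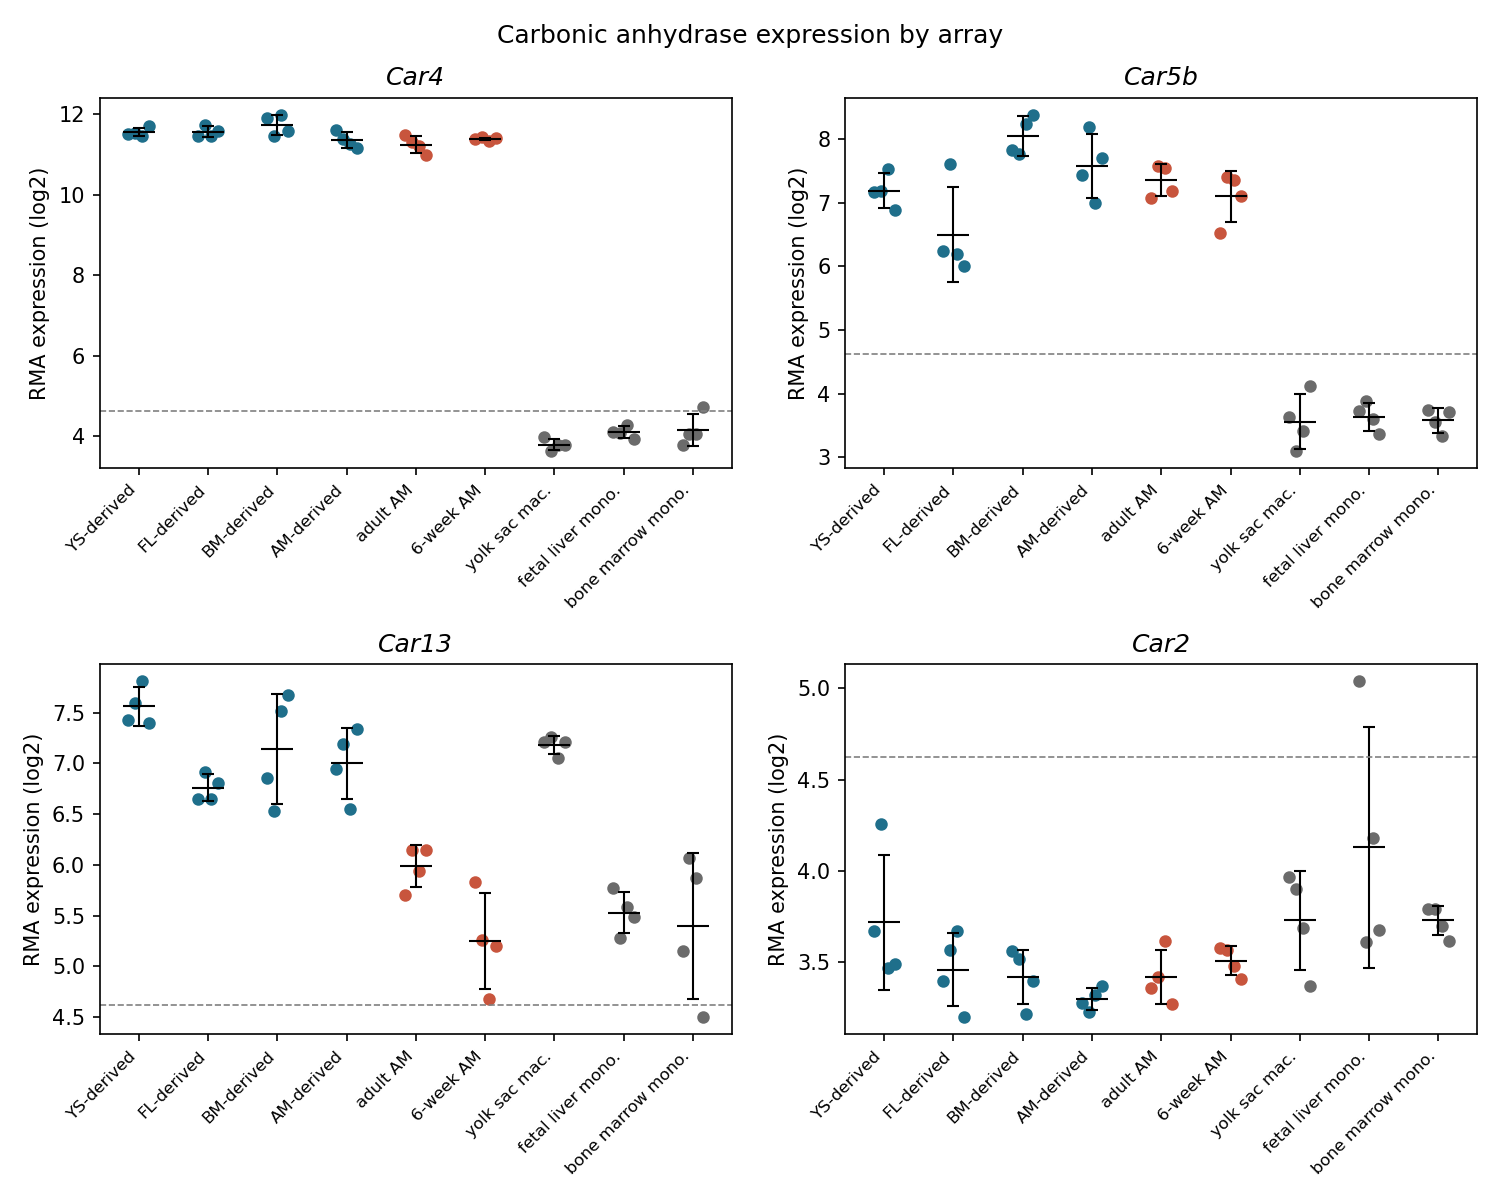
Log2 RMA expression of the 4 carbonic anhydrase genes on each array (points, 4 per group), with the group mean and SD (bars) and the table median of 4.62 (dashed). Car4 and Car5b lay above the median on all 24 alveolar macrophage arrays, Car13 was also high in yolk sac macrophages, and Car2 exceeded the median on 1 array.

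Over the 24 arrays of alveolar macrophages Car4 ran from 10.98 to 11.97 with a median of 11.46, against 3.63 to 4.72 over the 12 precursor arrays. Of all tested genes 5.21% were likewise higher on every alveolar macrophage array than on every precursor array, and 2.68% were lower. Car4 rose in YS-derived cells relative to yolk sac macrophages, with means of 11.55 ± 0.10 and 3.79 ± 0.14 (SD, n = 4 each), by 7.76 ± 0.15 (SE) log2 units (adjusted p = 1.69e-29). FL-derived cells averaged 11.56 ± 0.13, against 4.10 ± 0.14 in fetal liver monocytes, a rise of 7.45 (adjusted p = 4.03e-29). BM-derived cells averaged 11.73 ± 0.25, against 4.15 ± 0.40 in bone marrow monocytes, a rise of 7.58 (adjusted p = 3.52e-29). Because the precursor means were under the table median, folds were taken against that median as lower bounds, and Car4 was at least 122-fold higher in the YS-derived and FL-derived cells and at least 138-fold higher in the BM-derived cells than in their precursors. In these comparisons 42.9%, 38.3% and 36.4% of tested genes were called, in the order YS, FL and BM. Native adult alveolar macrophages exceeded yolk sac macrophages, fetal liver monocytes and bone marrow monocytes by 7.45, 7.14 and 7.09 log2 units, at least 98.3-fold, where 42.2%, 38.4% and 34.7% of genes were called.

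Once in the lung, the descendants showed no called difference in Car4. AM-derived cells exceeded native adult cells by 0.10 (95% interval -0.19 to 0.40, adjusted p = 0.929), in a comparison with 0.702% of genes called. Relative to 6-week native cells the differences were 0.17 for YS-derived cells (-0.13 to 0.46), 0.17 for FL-derived cells (-0.12 to 0.47), 0.35 for BM-derived cells (0.05 to 0.64) and -0.04 for AM-derived cells (-0.33 to 0.26), and the lowest adjusted p was 0.461. Each array of the YS-derived, FL-derived and BM-derived groups was above each 6-week array. The share of all tested genes that separate a pair of groups in this way was not counted, here or below. The change of Car4 over transfer also did not differ by test between origins, with differences of -0.13, 0.18 and 0.30 for FL against BM, YS against BM and YS against FL, where 9.94%, 30.6% and 22.9% of genes were called. Between descendant groups no Car4 difference was called, in comparisons with 0.270% of genes called for YS-derived against FL-derived cells, 0.833% for YS-derived against BM-derived, 0.417% for FL-derived against BM-derived, and 0.588%, 0.335% and 0.425% for YS-derived, FL-derived and BM-derived against AM-derived. Among precursors, the Car4 level of yolk sac macrophages relative to bone marrow monocytes fell by 0.36 on the log2 scale (adjusted p = 0.0487), where both groups were under the table median and the call was lost in 4 alternative settings and without each of 5 arrays in turn.

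Car5b, the mitochondrial enzyme, had the same division between alveolar macrophages and precursors as Car4. It alone of the tested members differed by test between 2 descendant groups, FL-derived and BM-derived. That call was lost with only those 2 groups in the fit. YS-derived cells had 7.16, 7.19, 7.53 and 6.88. FL-derived cells had 6.24, 7.60, 6.19 and 6.00. BM-derived cells had 7.83, 7.76, 8.24 and 8.38. Every BM-derived array was above every YS-derived and FL-derived array, and array 2 of the FL-derived group stood above the other arrays of its group, the next of which was at 6.24. For this and the other separations of Car5b between groups, the share of all tested genes that separate likewise was not counted. AM-derived cells had 7.44, 8.19, 7.00 and 7.70, against 7.08, 7.57, 7.55 and 7.19 in native adult cells. The 6-week native cells had 6.52, 7.40, 7.35 and 7.11. These 3 groups overlapped with each other. Car5b is X-linked, and the 6-week arrays with high Xist are the ones at 7.40 and 7.35. The part of Xist in the Car5b level was not tested. Car5b had 3.64, 3.10, 3.41 and 4.12 in yolk sac macrophages, 3.73, 3.88, 3.61 and 3.36 in fetal liver monocytes, and 3.74, 3.55, 3.33 and 3.72 in bone marrow monocytes. All 12 precursor arrays were under the table median, and in the order of means only the step between FL-derived cells and fetal liver monocytes was free of overlap.

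Over the alveolar macrophage arrays Car5b ran from 6.00 to 8.38, against 3.10 to 4.12 over the precursors. Car5b rose by 3.63 ± 0.27 (SE) log2 units in YS-derived cells relative to yolk sac macrophages (adjusted p = 1.88e-13), at least 5.92-fold. The rise over fetal liver monocytes was 2.86 in FL-derived cells (adjusted p = 8.16e-11), at least 3.69-fold. The rise over bone marrow monocytes was 4.47 in BM-derived cells (adjusted p = 1.13e-15), at least 10.8-fold. Every descendant array was thus above its precursor arrays. Native adult alveolar macrophages exceeded the 3 precursors by 3.70 to 3.78, at least 6.60-fold.

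FL-derived cells averaged 6.50 ± 0.74, against 8.05 ± 0.31 in BM-derived cells (SD, n = 4 each), so Car5b was 2.92-fold lower (log2 difference -1.55 ± 0.27 SE, adjusted p = 0.00151). In this comparison 0.417% of tested genes were called. With only these 2 groups in the fit the adjusted p was 0.185. Without FL-derived array 2 the difference was -1.91 (adjusted p = 7.75e-06). YS-derived minus BM-derived cells gave -0.86 with no overlap of arrays, and an adjusted p of 0.200. FL-derived minus AM-derived cells gave -1.07 (adjusted p = 0.0741). The change over transfer was 1.61 smaller for fetal liver than for bone marrow origin (log2 difference -1.61, 95% interval -2.38 to -0.84, adjusted p = 0.00422), where 9.94% of genes were called. YS-derived minus yolk sac differed from the bone marrow change by -0.84 (adjusted p = 0.0902). All precursor means of Car5b, 3.56 to 3.64, were under the table median. Both differences of change therefore largely repeat the differences between descendants. Relative to 6-week native cells no Car5b difference was called, with 0.09 for YS-derived, -0.59 for FL-derived, 0.95 for BM-derived (adjusted p = 0.0757, with no overlap of arrays) and 0.48 for AM-derived cells. Without FL-derived array 2 the FL-derived cells fell by 0.96 relative to the 6-week cells (adjusted p = 0.0420). AM-derived cells exceeded native adult cells by 0.23 (-0.31 to 0.78).

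**Figure D2:**
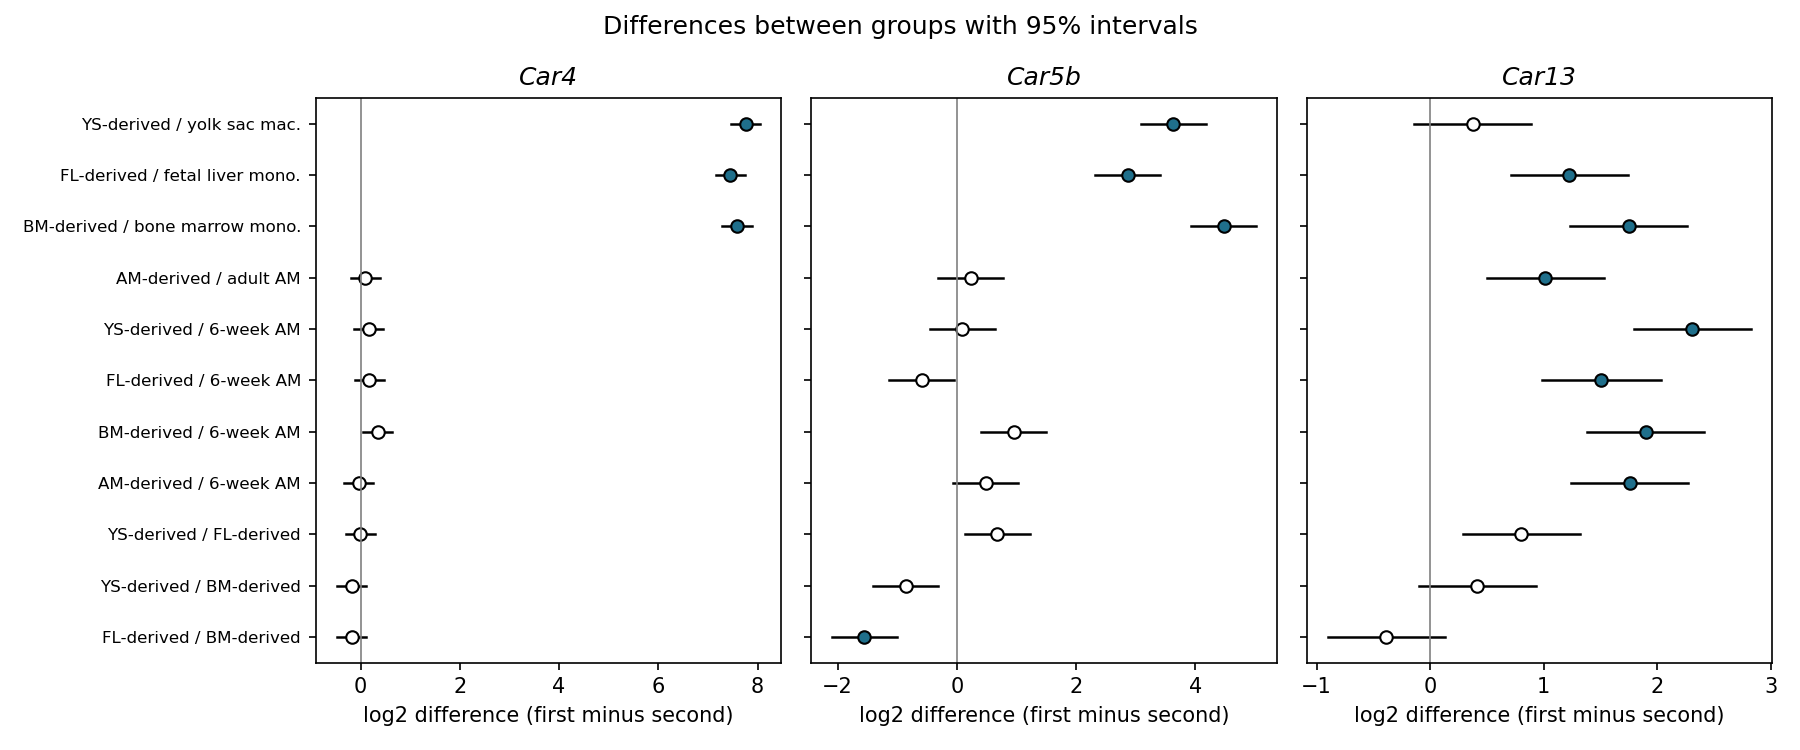
Log2 differences (first group minus second, points) with 95% intervals (lines) for Car4, Car5b and Car13 in 11 comparisons, filled where limma called them at an adjusted p under 0.05. Car4 and Car5b were called in the 3 comparisons with precursors, and Car13 in 2 of these and in all 5 comparisons of descendants with native cells.

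Car13, the other cytosolic enzyme, followed another order. Its 4 descendant groups and yolk sac macrophages lay above the native alveolar macrophages and the monocytes, and among the lower 4 groups each neighbour in the order of means overlapped the next. YS-derived cells had 7.43, 7.59, 7.81 and 7.40, FL-derived cells had 6.65, 6.91, 6.65 and 6.81, BM-derived cells had 6.86, 6.53, 7.52 and 7.67, and AM-derived cells had 6.94, 7.19, 6.55 and 7.34. Native adult cells had 5.70, 6.15, 5.94 and 6.15, and 6-week native cells had 5.83, 5.26, 4.68 and 5.20. The 16 descendant arrays ran from 6.53 to 7.81 with a median of 7.06, and the 8 native arrays from 4.68 to 6.15 with a median of 5.77, so no descendant array overlapped a native one. Among tested genes 26, or 0.212%, were higher on every descendant array than on every native array, and 0.0898% were lower. Car13 was 7.21, 7.26, 7.05 and 7.21 in yolk sac macrophages, 5.77, 5.28, 5.59 and 5.49 in fetal liver monocytes, and 5.15, 6.07, 5.87 and 4.50 in bone marrow monocytes. The yolk sac arrays were above all monocyte arrays.

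Relative to 6-week native cells, which averaged 5.25 ± 0.47, Car13 rose in all 4 descendant groups. YS-derived cells averaged 7.56 ± 0.19 and were 4.97-fold higher (log2 difference 2.31 ± 0.25 SE, adjusted p = 1.35e-07), in a comparison with 1.72% of genes called, 1.02% as higher. The FL-derived arrays had the narrowest spread of the 4. FL-derived cells, at 6.76 ± 0.13, were 2.85-fold higher (adjusted p = 0.000421), where 1.05% were called, 0.604% as higher. BM-derived cells, at 7.14 ± 0.54, were 3.73-fold higher (adjusted p = 1.02e-05), where 1.31% were called, 0.825% as higher. AM-derived cells, at 7.00 ± 0.35, were 3.38-fold higher (adjusted p = 4.89e-05), where 1.07% were called, 0.760% as higher. With only the 6-week arrays with high Xist, or only those with low Xist, all 4 calls remained, with log2 differences of 1.24 to 2.58 and a highest adjusted p of 0.0428. Every descendant array had both Xist and Eif2s3y above the table median, so neither kind of 6-week array matched the descendants in these genes. The part of this pattern in the Car13 differences was not tested. AM-derived cells were 2.02-fold higher than native adult cells, which averaged 5.99 ± 0.21 (log2 difference 1.01, 0.50 to 1.53, adjusted p = 0.0489). That call lay close to the threshold and was lost without 7 of the 8 arrays in turn and in 4 alternative settings. Native adult cells were above 6-week cells by 0.74 (0.23 to 1.26), which did not pass the test (adjusted p = 0.999) in a comparison with 0.0163% of genes called. Recipient genotype and transfer cannot be told apart in the comparisons of descendants with native cells, since no native group came from Csf2rb-/- mice.

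Relative to their own precursors, Car13 rose 3.35-fold in BM-derived cells (log2 difference 1.75, adjusted p = 8.76e-07) and 2.33-fold in FL-derived cells (1.22, adjusted p = 0.000178). YS-derived cells exceeded yolk sac macrophages, which averaged 7.18 ± 0.09, by 0.38 (-0.14 to 0.89, adjusted p = 0.250), and the arrays did not overlap. Car13 therefore changed 1.37 log2 units less with transfer for yolk sac than for bone marrow origin (-1.37, 95% interval -2.10 to -0.64, adjusted p = 0.00341), where 30.6% of genes were called. Yolk sac macrophages exceeded bone marrow monocytes by 1.78, and YS-derived exceeded BM-derived cells by 0.41 (adjusted p = 0.748). The difference of change therefore largely repeats the difference between precursors. The difference between yolk sac and fetal liver origin was -0.85 (adjusted p = 0.0893), and that between fetal liver and bone marrow origin was -0.52 (adjusted p = 0.437). Among precursors, yolk sac macrophages had 3.13-fold more Car13 than fetal liver monocytes (adjusted p = 2.66e-06) and 3.44-fold more than bone marrow monocytes (adjusted p = 5.24e-07), in comparisons with 33.1% and 42.2% of genes called. Native adult alveolar macrophages were 2.29-fold lower in Car13 than yolk sac macrophages (adjusted p = 0.000211). Fetal liver and bone marrow monocytes differed by 0.13 (adjusted p = 0.791), where 19.5% were called. Between descendant groups no Car13 difference was called, and the largest was 0.80 between YS-derived and FL-derived cells (adjusted p = 0.397), whose arrays did not overlap. The share of all tested genes that separate these pairs of groups likewise was not counted.

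Embryonic globin transcripts were high in the yolk sac group. Of 10 measured erythroid genes 5 were above the table median in yolk sac macrophages, with a summed level of 54.2 to 57.6, against 2 to 3 and 39.4 to 44.0 over all other groups. In limma, Hbb-y, Hba-x and Hbb-bh1, which are embryonic globins, and Epor, the erythropoietin receptor, rose in yolk sac macrophages relative to bone marrow monocytes, by 6.94, 4.17, 3.26 and 1.23. Slc4a1 (0.14) and Ermap (-0.21) were not called, and Alas2 (0.00), Klf1 (-0.23), Rhag (-0.24) and Car1 (-0.46) were too dim to be tested. Hbb-y averaged 3.54 in YS-derived cells and 10.44 in yolk sac macrophages, while Car13 averaged 7.56 and 7.18 in these groups. Car1 and Car2, the carbonic anhydrases known from red cells, were at 4.15 and 3.73 in yolk sac macrophages, under the table median. The part of erythroid RNA in the yolk sac Car13 level was not tested. Endothelial markers, which matter because lung endothelium is known to express Car4, were under the table median for 8 of 8 genes in all 6 alveolar macrophage groups, with a summed level of 29.4 to 31.6, against 31.2 to 34.1 in the precursors. Of 9 lung epithelial markers 5 to 6 were above it in alveolar macrophage groups, with a summed level of 41.5 to 47.7, against 3 and 36.4 to 39.7 in the precursors. Neutrophil markers had a summed level over 10 genes of 45.4 to 50.6 in alveolar macrophage groups, against 40.5 to 41.6 in yolk sac macrophages and 70.4 to 86.1 in monocytes. The part of endothelial, epithelial and neutrophil RNA in the Car4 and Car5b differences was not tested.

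Car2, the cytosolic enzyme of red cells and osteoclasts, was dim throughout. Its group means ran from 3.30 to 4.13, and its 36 values from 3.20 to 5.04. Fetal liver monocytes had the highest mean, with 5.04, 3.61, 4.18 and 3.68, and only the first of these was above the table median. All neighbouring groups overlapped in the order of levels, and no fold is given. Car2 and Car13 lie near each other: in the RefSeq order of chromosome 3 the protein-coding genes Car13, Car1, Car3 and Car2 follow one another. Car4 is on chromosome 11.

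All 16 carbonic anhydrase genes had a probe set and 6 were tested, namely Car4, Car5b, Car13, Car9, Car11 and Car15. Relative to their precursors, 2 of the 6 rose in YS-derived cells, 4 in FL-derived cells and 4 in BM-derived cells, and none fell. Over all tested genes 19.6%, 20.4% and 20.3% rose in these comparisons and 23.2%, 18.0% and 16.1% fell. The median log2 difference of the 6 genes was 0.34, 0.83 and 1.22 in these comparisons, against -0.00, -0.02 and -0.02 over all tested genes. Car5b was above the table median only on alveolar macrophage arrays, and Car4 on these and 1 precursor array. Car9 had precursor means of 4.30 to 4.42, under that median. These genes passed the filter through groups where they were high, which favours rises. The counts and medians of the 6 genes are therefore a description without a test. Car9, a membrane enzyme known to respond to low oxygen, rose by 0.70 in BM-derived cells relative to bone marrow monocytes (adjusted p = 0.00114) and by 0.43 in FL-derived cells relative to fetal liver monocytes (adjusted p = 0.0449). Its group means were only 4.30 to 5.07. The other tested genes were named after their values were seen. Car11, a catalytically inactive relative, stayed within means of 5.42 to 5.67, and Car15, another membrane-linked enzyme of the mouse, within 4.97 to 5.29.

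**Figure D3:**
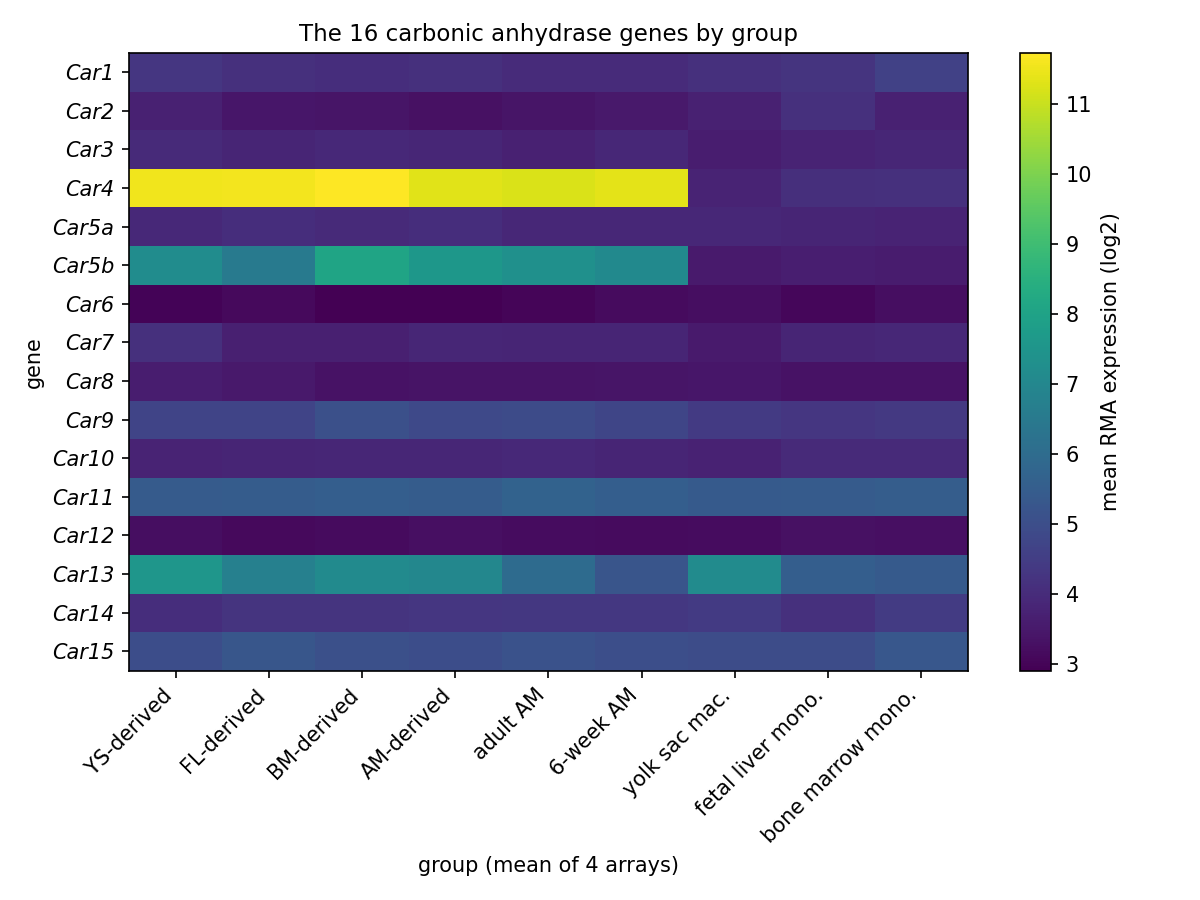
Mean log2 RMA expression (colour, 4 arrays per group) of the 16 carbonic anhydrase genes in the 9 groups. Car4 reached means of 11.24 to 11.73 in the 6 alveolar macrophage groups and of 3.79 to 4.15 in the 3 precursor groups. Colours are to be read along a gene, since probe signals of different genes are not on 1 scale.

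Bicarbonate and proton carriers work beside carbonic anhydrases, moving the products of the reaction across membranes. Of 26 listed transporters 23 had a probe set and 16 were tested. In YS-derived cells 4 rose and 4 fell relative to yolk sac macrophages, in FL-derived cells 3 rose and 1 fell relative to fetal liver monocytes, and in BM-derived cells 5 rose and 3 fell relative to bone marrow monocytes. These are to be read against 19.6%, 20.4% and 20.3% of all tested genes that rose and 23.2%, 18.0% and 16.1% that fell. The median log2 differences were 0.07, -0.01 and 0.02, against -0.00, -0.02 and -0.02 over all tested genes. This list was chosen with earlier results of these data known, so its counts are a description without a test. Hvcn1, the voltage-gated proton channel, averaged 8.89 in YS-derived cells and 4.35 in yolk sac macrophages, at least 19.2-fold higher (adjusted p = 9.07e-20). It was at least 20.4-fold higher in FL-derived cells than in fetal liver monocytes and 13.0-fold higher in BM-derived cells than in bone marrow monocytes. Slc9a7, a sodium-proton exchanger, rose by 3.53, 3.96 and 2.30 in the YS-derived, FL-derived and BM-derived cells. Slc9a9, an endosomal exchanger, was 17.4-fold lower in YS-derived cells than in yolk sac macrophages and 3.15-fold lower in BM-derived cells than in bone marrow monocytes. Slc16a3, a lactate and proton carrier, fell by 1.52 in FL-derived cells and by 0.77 in BM-derived cells relative to their monocytes. The other called transporters were Aqp9 (1.57), Slc26a6 (0.47), Slc26a11 (-0.86), Slc16a1 (-1.15) and Slc16a7 (-0.93) in YS-derived cells, Aqp9 (0.63) in FL-derived cells, and Aqp9 (0.87), Slc4a2 (0.40), Slc16a1 (0.60) and Slc26a11 (-0.58) in BM-derived cells, and these were named after their values were seen. Slc16a1 averaged 4.29 in BM-derived cells and 3.68 in bone marrow monocytes, both under the table median. Limma called 0 of the 16 in the comparisons of descendants with 6-week native cells, of AM-derived with adult native cells and between descendants, where 0 to 3 of them had an unadjusted p under 0.05. Of all 12244 tested genes 0.270% to 1.72% were called in these comparisons, and 716 to 1113 had an unadjusted p under 0.05.

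Acid secretion in osteoclasts uses Car2 together with a proton pump and lysosomal enzymes. Of the 12 listed genes 11 were tested, all but Car2. In YS-derived cells 9 rose and 1 fell relative to yolk sac macrophages, in FL-derived cells 7 rose and 1 fell relative to fetal liver monocytes, and in BM-derived cells 8 rose and 1 fell relative to bone marrow monocytes. Of all tested genes 19.6%, 20.4% and 20.3% rose and 23.2%, 18.0% and 16.1% fell in these comparisons. The median log2 differences were 1.17, 0.90 and 0.77, against -0.00, -0.02 and -0.02 over all tested genes. The list was chosen with earlier results of these data known. Ctsk passed the filter through alveolar macrophages, with 24 arrays above the table median and precursor means of 3.48 to 3.84. These counts and medians are therefore a description and not a test of the list. Atp6v0d2, a subunit of the proton pump, rose by 6.43, 8.27 and 8.33, which was 86.0-fold in YS-derived cells and at least 207-fold and at least 212-fold in FL-derived and BM-derived cells. Ctsk, the collagen-degrading cathepsin K, was at least 82.0-fold higher in each. Acp5, the tartrate-resistant phosphatase, rose by 4.07, 3.58 and 4.43, and Snx10, a sorting nexin needed by osteoclasts, by 2.90, 1.17 and 0.80. The 1 gene that fell was Mmp9, a secreted gelatinase, in each comparison, by 1.97 in YS-derived cells, 0.31 in FL-derived cells and 0.36 in BM-derived cells, and it was named after its values were seen. Mmp9 was above the table median on only 4 arrays, and its only group mean above it was 5.72 in yolk sac macrophages. The falls in FL-derived and BM-derived cells therefore lay between means under that median, those of a dim probe set. Relative to 6-week native cells, only Ctsk was called among the 11, with 0.76 in FL-derived cells (adjusted p = 0.0472), where 1.05% of all tested genes were called, and 0.75 in BM-derived cells (adjusted p = 0.0441), where 1.31% were called.

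**Figure D4:**
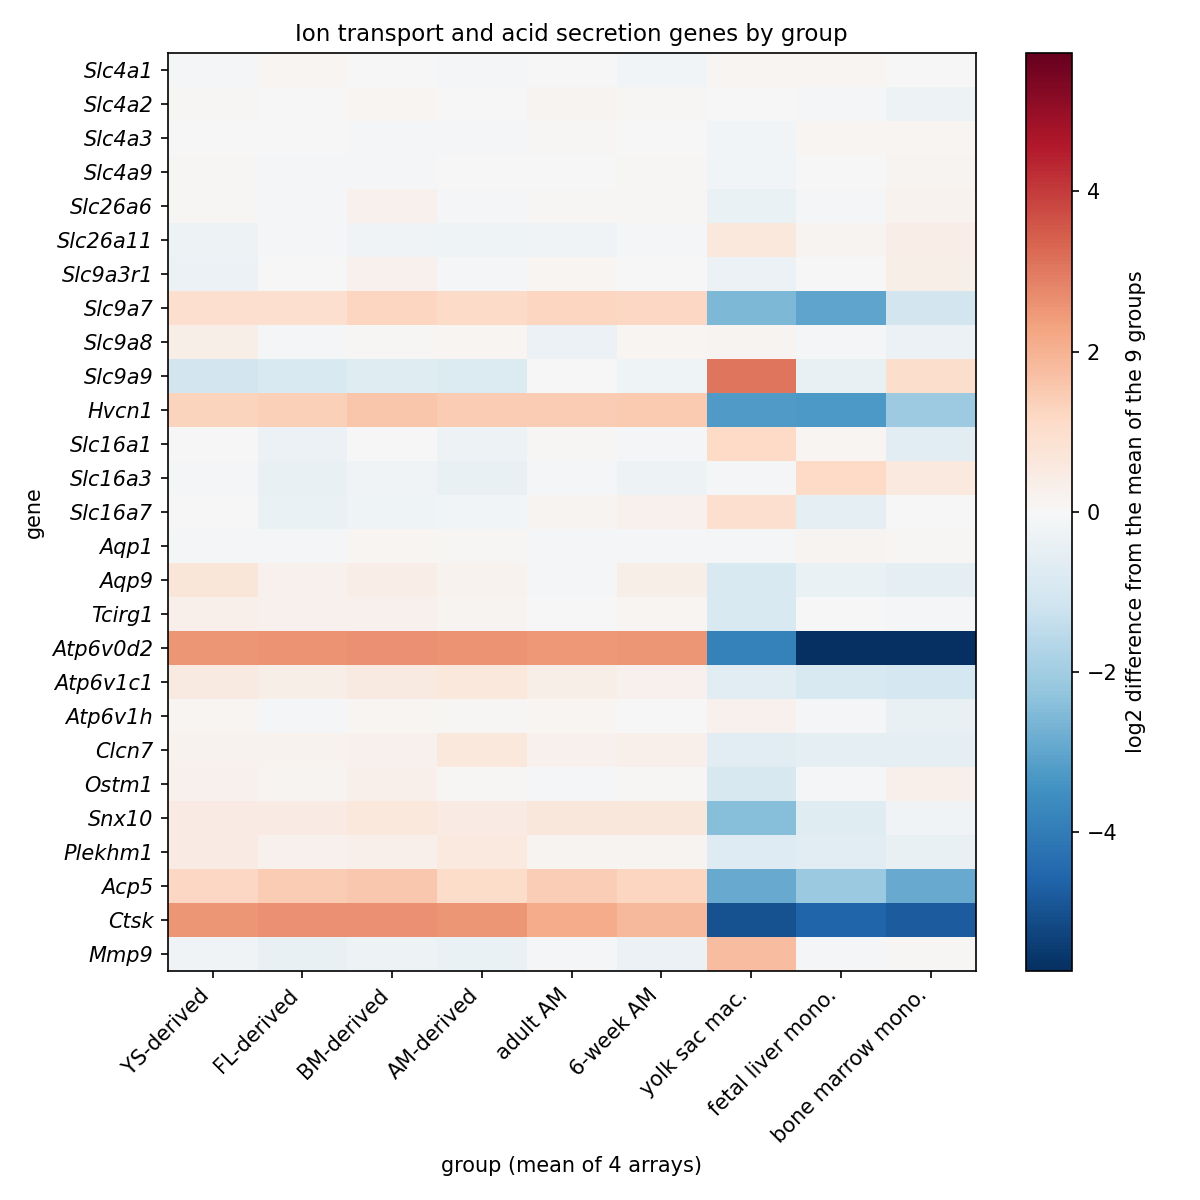
Log2 difference of each group mean (4 arrays) from the mean of the 9 groups, as colour, for the tested ion transport and acid secretion genes. Atp6v0d2, Ctsk, Acp5, Hvcn1 and Slc9a7 were higher in the alveolar macrophage groups than in the precursors, and Slc9a9 was highest in yolk sac macrophages.

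Across the 36 arrays, the genes whose log2 levels were most like those of each member were found by Pearson's r, as a description of arrays that share groups. Car4 was most like Kazald1 (0.997), Plet1 (0.997), Itgax (0.996), Cd9 (0.996) and F7 (0.995). For Car5b they were Myo1e (0.964), Cd2 (0.963), Vstm2a (0.963), Fabp1 (0.963) and Slc6a4 (0.960). Car13 had lower values, with Akr1b8 (0.835), Tspan4 (0.827), Igf1 (0.821), Trem2 (0.782) and Slc37a2 (0.760). The dim Car2 reached 0.720 with Pdxp. Car4 and Car5b thus shared the division into alveolar macrophages and precursors with many genes, and the highest r of Car13 with any tested gene of the rule was 0.835.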

How the data were processed

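RNA of sorted cells, amplified per the series' design text, was hybridised to 36 arrays in 9 groups of 4. The deposited values are log2 expression per probe set, made with RMA per the submitters' processing notes, whose version is not given in the sources used here. RMA compresses differences between dim probe sets, and depth does not apply to arrays: the number of arrays limits the precision. Array medians ran from 4.54 to 4.73. Of 35556 probe sets 21789 had 1 symbol, 1621 several and 12146 none, and 21698 symbols were updated by Entrez ID through RefSeq GRCm38.p6. Where a gene had more than 1 probe set (999 genes), the brightest on average stood for it.

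limma 3.58.1 in R 4.3.3 fitted 1 mean per group over all 36 arrays, with Benjamini-Hochberg adjustment over 12244 genes within each comparison and calls at 0.05. The fit was tested on simulated data. Named were the members, up to 4 genes per list by lowest adjusted p over the comparisons of descendants with precursors, and the 5 genes most like each member. Other genes of these lists were named after their values were seen. The members and lists were chosen with earlier results of these data known. Where a group mean was under the table median, that median replaced it in a fold. Alternatives changed the filter, scaling, variance prior, array weights, probe set rule, replicate block and samples in the fit.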

Additional observations from a re-analysis of the deposited data

Results flagged for a closer look

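Car5b on array 2 of the FL-derived group, at 7.60, lay far from the other 3 arrays of that group, at 6.24, 6.19 and 6.00, by Dixon's test. It was 1 of 36 groups of 4 tested, and chance alone gives about 1 in 20. The change of Car5b over transfer differed by -1.61 log2 units between fetal liver and bone marrow origin (limma, adjusted p = 0.00422), where 9.94% of genes were called. Both monocyte means were under the table median, so this largely repeats the difference between FL-derived and BM-derived cells. For Car13 the change differed by -1.37 between yolk sac and bone marrow origin (limma, adjusted p = 0.00341), where 30.6% of genes were called. Yolk sac macrophages exceeded bone marrow monocytes by 1.78, so this largely repeats the difference between these precursors.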

How the results depend on the processing

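Of 72 member differences 60 kept their side of the threshold under every alternative and 49 also their direction. In 11 the sign changed, and none of these 11 was called in any setting. Centring turned Car4 to 0.02 in fetal liver against bone marrow monocytes and to 0.00 in AM-derived against 6-week cells (0.01 with array weights), and Car5b to 0.08 in yolk sac macrophages against bone marrow monocytes. High-Xist 6-week arrays alone turned Car5b to -0.19 in YS-derived and -0.03 in adult native against 6-week cells. Leaving out single arrays gave ranges across 0 for Car4 in fetal liver against bone marrow monocytes (-0.17 to 0.15), AM-derived against 6-week cells (-0.12 to 0.03), YS-derived against FL-derived cells (-0.05 to 0.05) and the yolk sac against bone marrow change (-0.02 to 0.30). Car5b had such ranges in fetal liver against bone marrow monocytes (-0.02 to 0.15), yolk sac macrophages against bone marrow (-0.20 to 0.14) and fetal liver monocytes (-0.26 to 0.08), and YS-derived against 6-week cells (-0.10 to 0.20). For Car13 they were fetal liver against bone marrow monocytes (-0.16 to 0.36) and BM-derived against AM-derived cells (-0.03 to 0.35). With only the groups compared in the fit, AM-derived against adult native Car13 (1.01) had an adjusted p of 0.0547, yolk sac against bone marrow Car4 (-0.36) 0.160 and FL-derived against BM-derived Car5b (-1.55) 0.185, all lost. In that setting Car13 gained calls in adult native cells against fetal liver monocytes (0.45, adjusted p = 0.0458), in YS-derived cells against yolk sac macrophages (0.38, 0.0287) and in the yolk sac against fetal liver change (-0.85, 0.00182), and Car5b in the yolk sac against bone marrow change (-0.84, 0.0317). Without a filter the Car13 (1.01) and Car4 (-0.36) calls above had adjusted p of 0.0734 and 0.0592. With the replicate block they had 0.0744 and 0.0602, and after centring arrays on their medians 0.0626 (1.01) and 0.194 (-0.25). Adult native against bone marrow Car13 was called at 0.69 after centring and 0.68 with array weights.

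Leaving out each array in turn gave -0.48 to -0.16 for the Car4 difference (lost without bone marrow arrays 2 or 4 or yolk sac arrays 2, 3 or 4), 0.90 to 1.17 for AM-derived against adult Car13 (kept only without AM-derived array 3), and 0.29 to 0.81 for adult against bone marrow Car13 (called without bone marrow arrays 2 or 3). Without FL-derived array 2, Car5b gained calls against 6-week cells (range -0.96 to -0.42), in YS-derived against FL-derived cells (0.52 to 1.05), against AM-derived cells (-1.44 to -0.87, also without AM-derived array 3), and in the yolk sac against fetal liver change (0.59 to 1.13).

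With only the groups compared, 8 counts of called genes moved by over 1.5 times. They were 45 instead of 86 for AM-derived against adult cells, 74 instead of 128 for FL-derived against 6-week cells, 13 instead of 51 for FL-derived against BM-derived, 63 instead of 102 for YS-derived against BM-derived, 9 instead of 33 for YS-derived against FL-derived, 32 instead of 52 for BM-derived against AM-derived, 15 instead of 41 for FL-derived against AM-derived, and 0 instead of 2 for adult against 6-week cells, where 499 genes had an unadjusted p under 0.05 in limma over all arrays. Leaving out arrays gave 29 to 53 for BM-derived against AM-derived (lowest without BM-derived array 1 or AM-derived array 3) and 1 to 5 for adult against 6-week cells. With only high-Xist 6-week arrays, an alternative chosen after seeing the data, counts were 140 instead of 211 for YS-derived, 69 for FL-derived, 80 instead of 160 for BM-derived, 46 instead of 131 for AM-derived and 1 for adult cells. With only low-Xist arrays they were 101 for BM-derived and 77 for AM-derived cells. Fewer arrays entered these fits.

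Centring moved differences against bone marrow monocytes by up to 0.10 and the yolk sac against bone marrow change by -0.11. The share of calls that were higher became 64.3% instead of 54.1% for fetal liver against bone marrow monocytes, 68.2% instead of 57.1% for yolk sac macrophages, 66.4% instead of 55.2% for adult alveolar macrophages and 67.2% instead of 55.8% for BM-derived cells against the same monocytes, 32.6% instead of 42.9% for the fetal liver against bone marrow change, and 29.3% instead of 40.6% for the yolk sac against bone marrow change. Replicate numbers did not pair the samples: deviations of same-numbered arrays correlated at 0.00 on average (-0.38 to 0.42), 8 of 36 arrays correlated best with their own number, and the block changed no other member call. The causes were not tested. Signals under the table median limit what Car2 and the precursor levels can show.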
